A study of Mus musculus with 4 samples.

Results

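RNA polymerase II (Pol II) peaks were examined at the nuclear genes of the respiratory chain, the 97 of 21911 mouse protein-coding genes whose symbols begin with Nduf, Uqcr, Atp5, Sdha, Sdhb, Sdhc, Sdhd, Cox4, Cox5, Cox6, Cox7 or Cox8, leaving out pseudogene names. They comprised 75 common subunits, 8 tissue isoforms, 12 assembly factors and 2 associated proteins, and by complex 44 genes of complex I, 8 of complex II, 8 of complex III, 20 of complex IV and 17 of complex V. The rule uses names and no peak value.

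Oxidative phosphorylation runs in the inner mitochondrial membrane. Complexes I (NADH dehydrogenase) and II (succinate dehydrogenase) pass electrons through complex III (cytochrome bc1) to complex IV (cytochrome c oxidase), and complex V (ATP synthase) uses the proton gradient to make ATP. Most subunits are encoded in the nucleus, often from CpG-rich promoters, and the factors NRF1, GABP (an ETS factor) and YY1 are known regulators of many of them. Brain endothelial cells (ECs) are known for a high mitochondrial content relative to other endothelium.

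Pol II chromatin immunoprecipitation sequencing was carried out on flow-sorted brain ECs, and 4 libraries in 2 groups were compared. Old WT Cre mice, aged 20 to 23 mo and, like the other group, on a C57BL/6J background, carried the tamoxifen-inducible Cdh5-CreERT2 transgene, in which the VE-cadherin promoter drives Cre in endothelium. Young EC-K4KO mice, aged 4 to 6 mo, carried the same Cre with floxed Klf4 and had Cre induced with tamoxifen at 8 wk, so loss of the gene was limited to cells in which that promoter was active. The study states that controls received the same tamoxifen treatment. Genotype and age differed together, so their parts in any difference cannot be told apart. The methods call the libraries of a group biological replicates, without saying whether each came from 1 mouse or a pool. With 2 libraries in each group, no two-sided exact permutation p can fall under 0.3333, so groups are described by their values and by whether they overlap.

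The libraries are called old 1 and old 2 (labelled old WT Cre, replicates 1 and 2) and young 1 and young 2 (labelled young EC-K4KO, replicates 1 and 2) here. They held 22705175 to 65734178 fragments and 35638 to 235591 peaks, and young 2 stood apart with the most peaks from the fewest fragments. The mean share, the counts of members with a peak in all or no libraries and the group-specific patterns are also given without it. A TSS peak is one that overlaps the 1500 bp on either side of a transcription start site (TSS) of a gene. At Klf4 itself (chromosome 4), the 4 libraries gave no TSS peak in either old WT Cre library and 1 in each young EC-K4KO library, with pileups of 15 and 20 fragments and summits at -995 and 1198 bp. The deleted part of Klf4 is not given in the sources used here, so whether the second summit lies in it is not known. The genotype labels could thus not be checked from these peaks, and those in the libraries labelled young EC-K4KO give them no support. The study checked Klf4 loss by mRNA and protein in separately isolated brain ECs after tamoxifen. Of 14 endothelial markers, a TSS peak was present at 5 in old 1, 6 in old 2, 0 in young 1 and 8 in young 2, and Ly6c1, Pecam1, Slco1a4, Tek and Tie1 had one in no library. These were 35.7, 42.9, 0 and 57.1%, where all genes gave 25.6, 24.5, 10.6 and 67.6%. The endothelial share thus lay above that of all genes in the old libraries and below it in the young ones. The share of all genes lay inside the interval of these markers in each library. Markers of neurons (2, 2, 1 and 6 of 8), astrocytes (2, 1, 1 and 3 of 6), oligodendrocytes (0, 1, 1 and 5 of 6), microglia (3, 1, 0 and 5 of 7) and mural cells (3, 1, 2 and 6 of 8) also had peaks in the same order of libraries. As shares, neurons had 25, 25, 12.5 and 75% and astrocytes 33.3, 16.7, 16.7 and 50%. Oligodendrocytes had 0, 16.7, 16.7 and 83.3%, microglia 42.9, 14.3, 0 and 71.4% and mural cells 37.5, 12.5, 25 and 75%. In young 2 the endothelial share was below each of these but astrocytes. The part of other cell types in the results was not tested.

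Promoters of 4 members are shown because they stand for the patterns that follow: Ndufaf5 had a peak in all 4 libraries, Atp5k in the old WT Cre pair alone, Sdha in the young EC-K4KO pair alone, and Uqcr11 in none. The last 3 were added after the values were seen, and the other members with a peak in every library were Ndufs1 and Uqcrc2. Each sequence is RefSeq's for GRCm38.p6, the mm10 build of the files, and runs 5′ to 3′ from 250 bases before to 50 bases after the RefSeq start site. The windows are chr2:140170396-140170695 (plus strand) for Ndufaf5, chr5:108434350-108434649 (minus) for Atp5k, chr13:74350191-74350490 (minus) for Sdha and chr10:80406772-80407071 (minus) for Uqcr11. In the first 2 and in Uqcr11, capitals mark matches to the NRF1 motif GCGCATGCG on either strand or, further upstream in Uqcr11, to the ETS motif CCGGAAGT. In Sdha, which held no match to any of the 5 motifs searched, capitals mark the bases from the summit of one young EC-K4KO library to that of the other.
Ndufaf5: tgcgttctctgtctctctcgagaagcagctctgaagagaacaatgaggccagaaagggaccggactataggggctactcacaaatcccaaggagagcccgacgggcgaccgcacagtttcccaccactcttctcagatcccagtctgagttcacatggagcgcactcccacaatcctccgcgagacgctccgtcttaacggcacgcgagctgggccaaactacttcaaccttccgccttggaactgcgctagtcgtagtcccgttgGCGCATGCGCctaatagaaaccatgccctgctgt
Atp5k: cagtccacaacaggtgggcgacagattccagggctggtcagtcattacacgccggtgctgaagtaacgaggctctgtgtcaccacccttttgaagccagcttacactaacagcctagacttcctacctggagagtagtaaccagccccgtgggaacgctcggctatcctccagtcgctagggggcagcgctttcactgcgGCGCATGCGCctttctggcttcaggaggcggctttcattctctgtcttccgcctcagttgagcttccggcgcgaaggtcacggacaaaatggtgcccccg
Uqcr11: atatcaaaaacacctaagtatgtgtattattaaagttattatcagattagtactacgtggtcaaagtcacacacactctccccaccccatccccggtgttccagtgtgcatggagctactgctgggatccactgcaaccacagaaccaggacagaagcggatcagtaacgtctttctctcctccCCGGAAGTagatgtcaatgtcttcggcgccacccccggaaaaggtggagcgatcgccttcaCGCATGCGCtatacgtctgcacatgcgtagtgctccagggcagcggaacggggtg
Sdha: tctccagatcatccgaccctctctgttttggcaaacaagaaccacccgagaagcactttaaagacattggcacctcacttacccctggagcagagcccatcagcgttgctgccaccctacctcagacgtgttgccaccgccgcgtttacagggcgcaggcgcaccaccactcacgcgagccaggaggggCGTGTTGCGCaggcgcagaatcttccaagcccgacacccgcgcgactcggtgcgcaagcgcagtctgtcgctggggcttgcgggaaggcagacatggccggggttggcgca

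Respiratory chain genes carried a TSS peak more often than genes of like length in all 4 libraries. It was found at 33 members in old 1, 40 in old 2, 13 in young 1 and 77 in young 2. In old 1 the 33 members were 34.0% (95% exact Clopper-Pearson interval 24.7 to 44.3%), where 25.6% of all genes had such a peak. Old 2 had 41.2% of members (interval 31.3 to 51.7%) against 24.5% of all genes. The share in young 1 was 13.4% (interval 7.33 to 21.8%) against 10.6%. In young 2 it was 79.4% (interval 70.0 to 86.9%) against 67.6%.

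The 2 groups overlapped, since the lowest and the highest share both came from young EC-K4KO libraries. Their means were 37.6% ± 5.10 (SD, n = 2) in old WT Cre and 46.4% ± 46.7 (SD, n = 2) in young EC-K4KO, and without young 2 the young value was 13.4%, below both old WT Cre libraries. Those intervals cover counting error only, and the difference in means was smaller than the spread between the young EC-K4KO libraries.

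**Figure D1:**
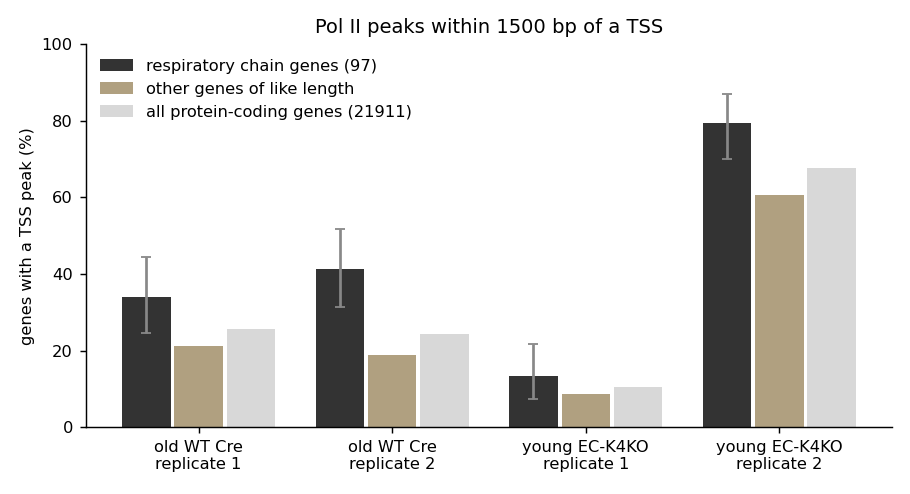
Percentage of genes with a Pol II peak within 1500 bp of a TSS in each library, for the 97 respiratory chain genes (dark bars, with 95% exact intervals), other genes of like length (tan bars) and all 21911 protein-coding genes (grey bars). The dark bar is the highest of the 3 in each library, at 34.0, 41.2, 13.4 and 79.4%.

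Members are short genes, with a median length of 7456 bp against 17430 bp for all genes, so they were also set beside genes of like length. Other genes in the same of 20 length bins had a TSS peak in 21.3 (old 1), 18.9 (old 2), 8.61 (young 1) and 60.7% (young 2) of cases. Members exceeded them by 12.7 and 22.3 percentage points in old WT Cre, a mean of 17.5 ± 6.76 (SD, n = 2), and by 4.80 and 18.7 points in young EC-K4KO, a mean of 11.8 ± 9.84 (SD, n = 2). The groups overlapped on this measure too. The share of genes of like length lay below the interval of the members in 3 libraries and inside it in young 1. Against genes of like promoter GC content in place of length, the 4 differences were 7.13, 16.2, 2.96 and 8.47 points, and the share of those genes (26.9, 25, 10.4 and 70.9%) lay below the interval of the members in old 2 and inside it in the other 3.

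The size of the difference depended on how strong a peak had to be in old 1 and young 1. At a q-value of at most 1e-05, 14 members (14.4%) kept a peak there against 12.2% of genes of like length, and at a fold enrichment of at least 4 the shares were 10.3 and 9.19%. All genes stood at 15.1 and 11.7% under these limits, above the members. In young 1 the same limits left 3 members (3.09%) against 2.64% of genes of like length, a difference of 0.45 points where 4.80 was found without them, and 7.22 against 5.04%. Of all genes there, 3.31% kept a peak at that q-value, more than of members, and 6.54% at that fold. In old 2 they gave 20.6 against 10.2% and 36.1 against 16.1%, and in young 2 70.1 against 49.1% and 70.1 against 50.6%, and all genes lay below the members in both libraries (13.4 and 21.4%, then 57.1 and 59.2%). With every list limited to the 35638 strongest peaks, young 2 had a TSS peak at 44.3% of members and 21.5% of genes of like length. Old 2 then stood at 39.2 against 17.4%, and old 1 at 10.3 against 9.48%. All genes then had 27.7% in young 2, 22.6% in old 2 and 11.8% in old 1, the last above the members.

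**Figure D2:**
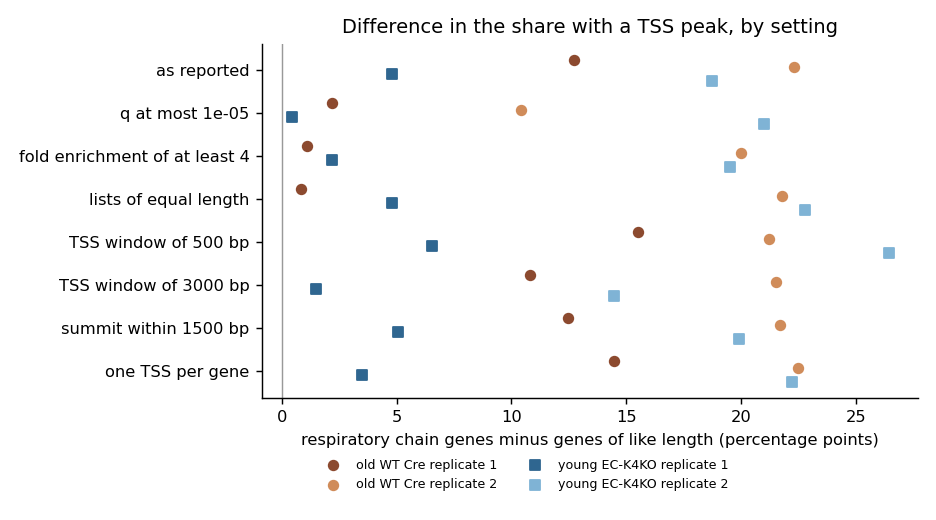
Percentage of respiratory chain genes with a TSS peak minus that of genes of like length, in percentage points, for each library (circles, old WT Cre; squares, young EC-K4KO) under the reported setting and 7 others. All points lie above 0, and those of old 1 fall from 12.7 points as reported to between 0.825 and 2.18 points under the 3 settings that keep stronger peaks.

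Cytosolic ribosomal protein genes, another set of short genes used in nearly every cell, had a TSS peak at 29.1, 36.0, 9.30 and 82.6% of 86 genes in the same order of libraries, and the intervals of both sets overlapped in each library. Olfactory receptor genes, which ECs are not known to use, had one at 7.41, 2.65, 5.95 and 25.1% of 1093 genes. The member shares lay above those of olfactory receptor genes in every library.

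Most members had a TSS peak in 1 or 2 of the 4 libraries. Of the 97 members, 11 had a TSS peak in no library, 30 in 1, 38 in 2, 15 in 3 and 3 in all 4. The members in no library were 11.3%, where 25.4% of all genes had none. Those in 1, 2 and 3 libraries were 30.9, 39.2 and 15.5%, where all genes gave 36.3, 25.2 and 10.9%. Leaving out young 2, 36 members (37.1%) had a peak in none of the 3 other libraries, against 56.0% of all genes.

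Both old WT Cre libraries had a TSS peak at 16 members (16.5%), where 10.1% of all genes had one. These were Atp5b, Atp5e, Atp5j, Atp5k and Atp5o of ATP synthase, Ndufa2, Ndufa5, Ndufa12, Ndufaf5, Ndufb4, Ndufs1 and Ndufs7 of complex I, Sdhd and Sdhaf4 of complex II, and Uqcrc2 and Uqcrh of complex III. They made up 48.5% of the members with a peak in replicate 1 and 40% of those in replicate 2, against 39.5 and 41.3% for all genes. The product of the shares of the 2 libraries, which is the overlap without any agreement between them, gives 13.6 members. Over all genes 2215 were shared, where the product gives 1374. Both young EC-K4KO libraries had a peak at 10 members (10.3%), with 9.11% for all genes: Atp5f1, Atp5j2, Cox7a2l, Ndufaf5, Ndufaf7, Ndufb6, Ndufs1, Ndufs3, Sdha and Uqcrc2. Those 10 were 76.9% of the members found in young 1, where all genes gave 85.8%. They were 13.0% of those in replicate 2, where all genes gave 13.5%. The product of the shares gives 10.3 members, so the 2 young libraries shared no more members than that. With 13 members called in young 1, the overlap could not exceed 13. Over all genes 1997 were shared, where the product gives 1573.

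**Figure D3:**
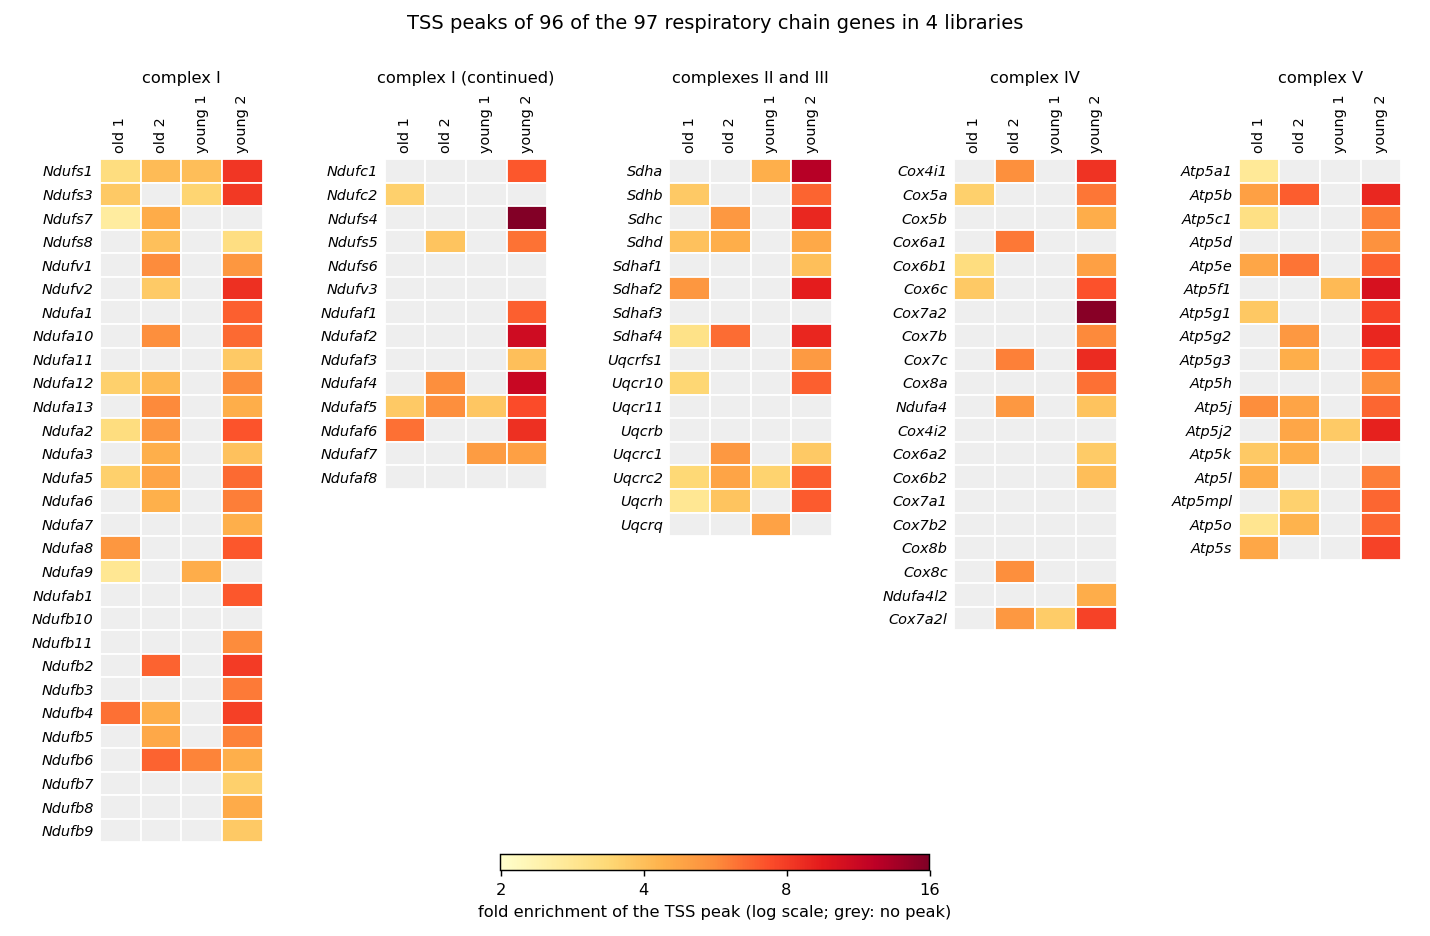
Fold enrichment of the TSS peak of 96 of the 97 members (rows, by complex) in each library (columns), on a log colour scale, where grey marks no peak. The last column of each panel (young 2) is filled for 77 rows and the third (young 1) for 12, and 3 rows are filled throughout.

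A TSS peak in all 4 libraries was found at 3 members (3.09%), with 2.22% for all genes, and the same 3 were the members with a peak in each of the 3 libraries other than young 2, where all genes gave 2.32%. Ndufaf5 (ENSMUSG00000027384.6), a complex I assembly factor, had summits 175, 137, 308 and 288 bp downstream of its TSS in old 1, old 2, young 1 and young 2. The pileup, the number of fragments over the summit, was 19, 14, 11 and 16 in that order, and the fold enrichment, its ratio to the local background of the same library, was 3.76, 5.59, 3.82 and 7.40. All 4 summits thus lay downstream of the NRF1 match printed above, at positions 17 to 26 from the RefSeq start.

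Ndufs1 (ENSMUSG00000025968.16), the largest iron-sulphur subunit of complex I, had fold enrichments of 3.19 and 4.10 in the old libraries and 4.04 and 8.27 in the young ones. Its pileups were 16, 10, 12 and 27 fragments. The summits lay at 187, -2, 18 and -574 bp, so the one in young 2 was upstream, on the side of Eef1b2, a translation factor gene that starts 3 bp away in the other direction. Uqcrc2 (ENSMUSG00000030884.12), a core protein of complex III with no other protein-coding start within 1500 bp, had fold enrichments of 3.38, 4.85, 3.51 and 6.90. Its pileups were 17, 12, 10 and 15 fragments, with summits at -144, 189, 84 and 145 bp. Since these ratios were not normalized between libraries, each was also ranked among the genes with a TSS peak in its own library. In the usual order of libraries the percentiles were 41.8, 69.8, 30.4 and 76.0 for Ndufaf5, 15.4, 17.2, 39.3 and 84.4 for Ndufs1, and 23.5, 43.9, 14.8 and 69.2 for Uqcrc2. These lists held 5613, 5365, 2328 and 14801 genes, so a rank places a gene within its own library and the ranks cannot be compared between libraries. At a q-value of at most 1e-05 no member had a peak in all 4 libraries.

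With young 2 included, group-specific patterns were few. A TSS peak in both old WT Cre libraries and neither young EC-K4KO library was found at 2 members (2.06%), against 0.78% of all genes. That count rests on young 2. Of the 16 members with a peak in both old libraries, all but Ndufaf5, Ndufs1 and Uqcrc2 had none in young 1. Over all genes, 509 of the 2215 with a peak in both old libraries also had one in young 1. Atp5k, a small membrane subunit of ATP synthase, had fold enrichments of 3.74 and 4.47 and summits 858 and 240 bp downstream. Ndufs7, which carries the last iron-sulphur cluster of complex I before ubiquinone, had fold enrichments of 2.63 and 4.55 and summits 287 and 158 bp downstream. Their pileups were 21 and 11 fragments for Atp5k and 19 and 13 for Ndufs7, where the lowest called in those libraries were 13 and 8, and neither had a peak in both libraries at the stricter q-value.

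The opposite pattern, both young EC-K4KO libraries and neither old WT Cre library, was found at 3 members (3.09%), against the same 3.09% of all genes, so its frequency among members was that of any gene. Sdha, the flavoprotein that oxidises succinate, had fold enrichments of 4.46 and 12.6 and pileups of 13 and 28 fragments. Its summits at -12 and -21 bp from the annotated start, which lies 40 bases upstream of RefSeq's, are the ends of the capitals in the sequence above. Ndufaf7, a methyltransferase needed for complex I assembly, had fold enrichments of 5.10 and 4.93 with pileups of 15 and 11 fragments and summits at 551 and 119 bp, and it was the only member with a peak in both young EC-K4KO libraries at a q-value of at most 1e-05. Atp5f1, the stalk subunit b of ATP synthase, had fold enrichments of 4.14 and 10.4, pileups of 12 and 23 fragments and summits at 879 and 574 bp. Each of these 3 starts within 1500 bp of another gene (Ccdc127, Cebpz and Wdr77), and in both young EC-K4KO libraries its peak was also the TSS peak of that gene.

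By complex, ATP synthase genes had the highest shares with a TSS peak in both old WT Cre libraries, with wide intervals. Of 17, there were 10 and 9 in the old libraries and 2 and 15 in the young ones. Cytochrome c oxidase genes had 3 and 6 of 20 in the old libraries and 1 and 14 in the young ones, and none of the 20 had one in old 1 and old 2 together. In old 1 the exact intervals of complex V (32.9 to 81.6%) and complex IV (3.21 to 37.9%) overlapped, as they did in replicate 2. Complex I had 13 and 19 of 44 in the old libraries and 7 and 36 in the young ones, complex II 4 and 3 of 8, then 1 and 7, and complex III 3 and 3 of 8, then 2 and 5. Set beside the 25.6, 24.5, 10.6 and 67.6% of all genes, complex V had 58.8, 52.9, 11.8 and 88.2%, complex IV 15, 30, 5.0 and 70% and complex I 29.5, 43.2, 15.9 and 81.8%. The share of all genes lay below the interval of complex V in both old libraries and of complex I in old 2, and inside the interval of each of the 5 complexes otherwise. These intervals treat genes as independent and were not corrected for the number of complexes and libraries. The complexes were not set beside genes of like length or GC content.

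Within ATP synthase, Atp5b, the catalytic beta subunit, had TSS peaks in 3 libraries, with fold enrichments of 4.93 and 6.89 in old WT Cre and 8.87 in young 2. Its summits lay 188, 147 and 117 bp downstream, close to each other, and with 20 fragments it was the tallest member of old 2. Atp5e, the small epsilon subunit, had fold enrichments of 4.74, 6.25 and 6.78 in the same 3 libraries. Atp5b and Atp5e were the 2 members with a peak in both old WT Cre libraries at a q-value of at most 1e-05. Of the 3 genes that encode the same c-ring protein, Atp5g1 had a peak in old 1 (fold 3.79), Atp5g2 and Atp5g3 in old 2 (5.22 and 4.47), and all 3 in young 2 (7.75, 8.95 and 7.37).

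The 4 subunits of succinate dehydrogenase, which belong both to the respiratory chain and to the tricarboxylic acid cycle, had different patterns. Sdhb, the iron-sulphur subunit, had a TSS peak in old 1 (fold 3.75) and young 2 (6.71). Sdhc, a membrane anchor, had one in old 2 (5.22) and young 2 (8.88). Sdhd, the other anchor, had peaks in both old WT Cre libraries (3.94 and 4.47) and in young 2 (4.64), all with summits 233 to 263 bp upstream, on the side of Timm8b, a mitochondrial import gene that starts 98 bp away. Sdha alone had its peaks in both young EC-K4KO libraries. No subunit of the 4 had a peak in every library.

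Of the 8 genes classed here as tissue isoforms, not all of them limited to a single tissue, 4 had a TSS peak in at least 1 library, each in 1 alone. Of the 75 common subunits, a TSS peak was present at 28 and 35 in the old libraries and at 10 and 62 in the young ones. Of the 8 isoforms (Cox4i2, Cox6a2, Cox6b2, Cox7a1, Cox7b2, Cox8b, Cox8c and Ndufa4l2), it was present at 0 and 1 in the old libraries and 0 and 3 in the young ones. The single old WT Cre peak was at Cox8c, a testis form, with fold 5.59 in replicate 2. In young 2 there were peaks at Cox6a2 (fold 3.68, summit at -787 bp), Cox6b2 (4.02, at 17 bp) and Ndufa4l2 (4.53, at -1359 bp). With a count of 0 of 8 the exact interval still reaches 36.9%, the intervals of isoforms and common subunits overlapped in each library, and the shares of all genes (25.6, 24.5, 10.6 and 67.6%) lay inside those of the isoforms.

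The common partners of these isoforms had TSS peaks in 1 or 2 libraries, apart from Cox7a2l with 3. Cox4i1 had a TSS peak in old 2 and young 2 (fold 5.53 and 8.41), while Cox4i2, known from lung, had none. Cox6a1 had one in old 2 (6.15), Cox6b1 in old 1 (3.19) and young 2 (4.96), and Cox8a in young 2 (6.38). Cox7a2, the widely used form, had one in young 2 alone, with a fold of 15.5, while the muscle form Cox7a1 had none. Cox7a2l, which helps complexes III and IV associate, had peaks in 3 libraries (5.22 in old 2, then 3.68 and 7.78 in young EC-K4KO). Ndufa4, now counted with complex IV, had peaks in old 2 (5.22) and young 2 (3.92).

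The 11 members with no TSS peak in any library were the isoforms Cox4i2, Cox7a1, Cox7b2 and Cox8b, the complex I subunits Ndufb10, Ndufs6 and Ndufv3, the complex III subunits Uqcr11 and Uqcrb, and the assembly factors Ndufaf8 and Sdhaf3. So 5 of them encode subunits used in all cells. With a TSS window of 3000 bp, 4 of the 11 remained without a peak (Cox7b2, Ndufaf8, Uqcr11 and Uqcrb). Absence from a list means that the signal did not reach the calling threshold at this depth, not that Pol II was absent.

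The tallest member peaks named here differed between libraries. In old 1 they were Ndufaf6 and Ndufb4 (33 fragments each), and in old 2 Atp5b (20), then Cox4i1, Cox6a1 and Ndufv1 (19 each). Young 1 had Uqcrq (21), Ndufb6 (19) and Atp5j2 (16), and young 2 had Atp5d (38), Ndufs4 (37) and Cox7a2 (36). None of these genes was listed for more than 1 library. Ndufs4, an accessory subunit whose loss causes complex I deficiency, had the highest fold enrichment of the members in young 2, 15.8, and no TSS peak in the other 3 libraries.

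The fold enrichment of member peaks was set beside that of other genes called in the same library. Their median fold enrichment was 3.74 (old 1) and 5.03 (old 2), against 3.94 and 5.0 for all genes with a TSS peak, and 4.04 (young 1) and 6.63 (young 2), against 4.16 and 5.81. The median percentile of member peaks by fold, among genes with a TSS peak in the same library, was 38.5, 50.6, 39.3 and 65.2, from the same lists of unequal length. A q-value of at most 1e-05 was reached by 42.4, 50, 23.1 and 88.3% of member peaks, against 59.0, 54.5, 31.1 and 84.6% for all genes. The median member pileup was 19, 13, 13 and 20 fragments, where the lowest pileup called in each library was 13, 8, 9 and 7. Thus the typical member peak lay a few fragments above the limit in the first 3 libraries. Only genes with a called peak enter these medians.

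More member summits lay downstream of the TSS than upstream of it. They were downstream in 75.8, 80, 76.9 and 54.5% of cases, against 63.9, 67.5, 56.3 and 62.5% for all genes, and within 300 bp downstream in 42.4, 65.0, 53.8 and 42.9%, against 29.4, 37.1, 26.7 and 32.0%. In the direction of transcription the median summit was at 187 (old 1), 160.5 (old 2), 84 (young 1) and 21 bp (young 2), where all genes gave 137, 130, 53 and 98 bp. Measured from the nearest start site, the members thus lay further downstream than all genes in 3 libraries and further upstream in young 2. In old 2 the lower and upper quartiles of the summits were at 95.25 and 204 bp for members and at -122 and 376 bp for all genes. Summits within 500 bp of a TSS made up 81.8, 85.0, 76.9 and 83.1% of member peaks, against 59.5, 72.2, 61.6 and 67.6% for all genes. With 1 start site per gene, the 5′ end of its record, the 4 medians were 208, 189, 214 and 120 bp, so the order between the groups rests on which start site is used. The medians of all genes were not recomputed this way, so the upstream place of members in young 2 holds for the nearest start alone.

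The share of genes covered by a peak was counted at every 50 bp around the 5′ end of the gene record. For members it was highest at 250 bp in old 1 (15.5%) and 200 bp in old 2 (20.6%), and for all genes at 150 bp in both (6.78 and 8.21%). In young 1 the members reached 6.19% at 100 bp and again at 200 bp, where all genes reached 2.33%. In young 2 they reached 49.5% at 200 bp, against 26.2% at 150 bp for all genes. The coverage of members was thus higher and, in 3 of the 4 libraries, 50 to 100 bp further downstream at its highest point.

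**Figure D4:**
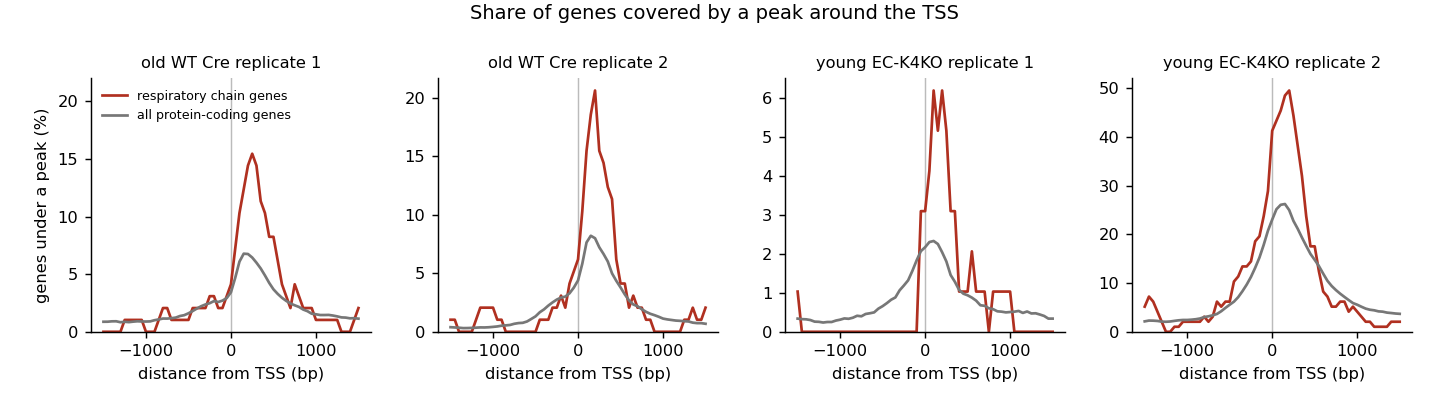
Percentage of genes under a peak at each distance from the TSS (bp, positive downstream), for the 97 respiratory chain genes (red) and all protein-coding genes (grey), with 1 panel per library and its own vertical scale. The red curve is highest between 100 and 250 bp downstream in each library, at 15.5, 20.6, 6.19 and 49.5%, above the grey.

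Peaks inside the genes, more than 1500 bp from any of their start sites, showed no such excess. They were present at 27 members (27.8%) in old 1, where 46.7% of all genes and 25.2% of genes of like length had one. In old 2 they were present at 11 (11.3%), against 32.9% of all and 15.5% of like length. The young EC-K4KO libraries had 13 (13.4%), against 26.0 and 10.8%, and 46 (47.4%), against 68.8 and 49.8%. Relative to genes of like length the 4 differences were 2.62, -4.14, 2.61 and -2.40 points, on both sides of 0.

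Many members share a promoter region with another gene. A protein-coding gene started in the opposite direction within 1000 bp upstream of 28 members (28.9%), against 9.0% of all genes, and 33 (34.0%) had another protein-coding start within 1500 bp, against 13.0%. As a result, 13 of the 33 member peaks in old 1, 11 of 40 in old 2, 6 of 13 in young 1 and 30 of 77 in young 2 were also the TSS peak of another gene, and the gene a peak belongs to cannot be told apart. Atp5j, a stalk subunit of ATP synthase, shares its region with Gabpa, which encodes the DNA-binding subunit of GABP and starts 686 bp away. The same peak counted for both genes in old 1 and old 2 (fold 5.63 and 4.85) and in young 2 (6.61). Ndufa7 lies beside Rps28, a ribosomal protein gene 10 bp away, and Ndufs6 beside Mrpl36, a mitochondrial ribosomal protein gene 51 bp away. The 64 members with no other start within 1500 bp had a TSS peak in 29.7, 43.8, 10.9 and 75% of cases, against 42.4, 36.4, 18.2 and 87.9% of the other 33. The 28 members with an opposite gene within 1000 bp had one in 46.4, 32.1, 14.3 and 85.7% of cases, where all 1972 genes with such a neighbour gave 34.8, 38.7, 17.0 and 85.5%, inside the members' interval in each library. Beside these genes the members were thus higher in old 1, lower in old 2 and young 1 and level in young 2. With genes that have another start within 1500 bp left out on both sides, members exceeded genes of like length by a mean of 18.6 points in old WT Cre and 10.4 points in young EC-K4KO.

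Short motifs were counted in the 300 bases from 250 before to 50 after the 5′ end of each gene record, on both strands. The NRF1 letters GCGCATGCG were in 7 member promoters (7.22%), against 2.49% of all promoters and 2.63% of those of like GC content. These were Atp5k, Atp5l, Cox6a1, Ndufa11, Ndufaf4, Ndufaf5 and Uqcr11. The YY1 letters AAGATGGCG were in 4 (4.12%, against 1.69%), the ETS letters CCGGAAGT in 6 (6.19%, against 4.68%), the CRE letters TGACGTCA in 4 (4.12%, against 2.43%), and the Sp/KLF letters GGGGCGGGG in 11 (11.3%, against 14.5%). Of the 7 members with the NRF1 letters, a TSS peak was present at 3 and 4 in the old libraries and at 1 and 4 in the young ones. Of the 11 with the Sp/KLF letters it was present at 6 and 5, then 1 and 11. The latter were 54.5, 45.5, 9.09 and 100% of the 11, where members without these letters had 31.4, 40.7, 13.95 and 76.7% and all genes 25.6, 24.5, 10.6 and 67.6%. In young 2 the 4 members with the CRE letters also reached 100%, against 78.5% without them. The other motifs went the other way there. The shares with and without the letters were 57.1 and 81.1% for NRF1, 66.7 and 80.2% for ETS and 50 and 80.6% for YY1. Whether any of these letters matter to the peaks was not tested. A match is a run of letters, not a bound site.

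Other genes of the pathway were counted by function. Of 22 assembly factors outside the naming rule, 11 and 13 had a TSS peak in the old libraries and 6 and 19 in the young ones, and Atpaf2, which helps assemble ATP synthase, had one in every library. Cytochrome c itself, encoded by Cycs, had fold enrichments of 4.13 and 5.97 in the old libraries and 5.56 and 9.14 in the young ones, so it too had a peak in all 4. Cyc1, the haem subunit of complex III, had one in old 1 (4.20) and young 2 (5.07). Of 15 tricarboxylic acid cycle genes the counts were 6 and 5, then 3 and 14, with Suclg2 in all 4 libraries. The shares were 50, 59.1, 27.3 and 86.4% for the assembly factors and 40, 33.3, 20 and 93.3% for the cycle genes, where all genes gave 25.6, 24.5, 10.6 and 67.6%.

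Of 14 regulators of mitochondrial genes, 3 and 6 had a TSS peak in the old libraries and 2 and 12 in the young ones. These were 21.4, 42.9, 14.3 and 85.7%, below the share of all genes in old 1 and above it in the others, and that share lay inside the interval of the regulators in each library. Nrf1 had one in old 2 (fold 5.41) and young 2 (5.96), as did Tfam, the mitochondrial DNA packaging factor (5.49 and 6.58). Gabpb1, the partner of Gabpa in GABP, had peaks in old 2 (7.08) and both young EC-K4KO libraries (3.19 and 9.74). Ppargc1a, the coactivator PGC-1alpha, had one in old 1 alone (4.13). Esrra, Gabpb2, Polrmt, Sp1 and Tfb1m had one in young 2 alone, and Pprc1 in none. No regulator had a peak in all 4 libraries.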

How the data were processed

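Pol II peak lists of 4 libraries of sorted brain ECs were used, grouped by the genotype and age in the labels. The study's protocol used 200000 cells fixed with formaldehyde and digested with MNase, so fragment ends follow the enzyme as well as Pol II. The authors aligned reads to mm10 (GRCm38) with Bowtie2 and called peaks in each library separately; per the file headers this was MACS2 2.2.7.1 in paired-end mode, q cutoff 0.01, no control library and all duplicates in the input kept. The deposited tables give each peak's pileup (a coverage signal in fragments), its fold enrichment (a ratio over local background) and its p-value and q-value, both as −log10. These were not normalized between libraries, so they were read within a library. The narrow peak lists repeat the tables and were, with the summit lists, not used.

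Start sites came from the GENCODE M21 basic annotation: 21938 records on nuclear chromosomes, reduced to 21911 genes with 1 record per symbol. A gene's TSS peak was the one of lowest q-value that overlapped the 1500 bp on either side of a start site. Shares of genes of like length are means, over members, of the share among other genes in the same of 20 length bins. No model was fitted and no test was made, since the lists hold no counts per gene. Python 3.11.15, numpy 2.4.6, pandas 2.3.3, scipy 1.17.1 and pysam 0.24.0 were used, and the steps were tested on planted peaks. RefSeq promoters matched 78 of the 97 members.

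The members and lists were chosen with earlier results of these data known. Members were named if they had a TSS peak in all 4 libraries, in both of one group and neither of the other, or in none, if they encode succinate dehydrogenase subunits or belong to an isoform family, or if they ranked among the 3 tallest of a library. Values of 1 member are not reported here, though the counts include it. Others are named as chosen after their values were seen. The study's ATAC-seq and RNA-seq data were not analysed here.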

Additional observations from a re-analysis of the deposited data

How the results depend on the processing

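The counts of members and the excess over genes of like length were recomputed with fewer peaks (a stricter q, a higher fold enrichment or lists cut to one length), with other TSS windows, with the summit in place of the overlap, 1 start site per gene, other ways to choose the compared genes, and leaving out each library. The median summits were recomputed under 4 of these and the values for single genes under 3, while complexes, isoforms, peaks inside genes, motifs and other gene sets were not recomputed. The excess over genes of like length kept its direction under every one, between 6.31 and 19.1 points in old WT Cre and between 7.96 and 16.5 in young EC-K4KO where no library was left out. Against genes of like promoter GC content it was 11.7 and 5.72 points, and against genes with the same number of start sites 13.0 and 7.74, where 17.5 and 11.8 were found as reported.

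At a q-value of at most 1e-05, the counts of members with a TSS peak were 14, 20 and 3 in the first 3 libraries, 2 in both old WT Cre, 1 in both young EC-K4KO and 0 in all 4, and the old WT Cre excess was 6.31 points. At a fold enrichment of at least 4, they were 10 in old 1, 7 in young 1, 4 and 5 in both libraries of each group and 0 in all 4, and the excess was 10.6 points. With lists of equal length they were 10 in old 1, 43 in young 2, 4 in both old WT Cre and 0 in all 4. The median summits were 208, 189, 214 and 120 bp with 1 start site per gene, and 119.5 bp in old 1 and 11 bp in young 1 at the stricter q. Each limit on strength keeps fewer peaks by construction, and the cause of the other shifts was not tested.

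Leaving out a replicate gave 33 to 40 members for old WT Cre and 13 to 77 for young EC-K4KO, 3 to 14 with a peak in all libraries left, and an excess of 12.7 to 22.3 and 4.80 to 18.7 points. Without young 1, 14 members had a peak in all libraries left, and without old 1 there were 6. Among the values for single genes, 112 stayed within 1.5 times and 26 moved further. No paired analysis was possible because no result here comes from a test across samples. The lists hold only peaks past the calling limit (a pileup of at least 13, 8, 9 and 7 fragments). Young 2 had the fewest fragments and the most members called, and the part of depth in these counts was not tested.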
